A study of Oryza sativa Japonica Group with 5 samples.

Results

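A stretch of rice chromosome 6 was followed gene by gene in leaves of the mutant pls4 and of wild type rice (Oryza sativa, Japonica Group). It comprised every locus whose identifier of the Rice Annotation Project lies between Os06g0560000 and Os06g0640000 in text order, with 1 identifier left out. That made 406 of the 36475 loci listed in the deposited tables, and 2564 further loci of chromosome 6 lie outside the stretch. The stretch was picked because it holds Os06g0580100, whose transcript showed the largest fall in pls4. The difference between pls4 and wild type therefore chose the stretch, and its values in that comparison are given here as a description.

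The series describes pls4 as altered in its susceptibility to sheath blight, a fungal disease. Leaf RNA was sequenced from 2 pls4 libraries, for which the labels give the treatment as knockdown, and 3 wild type (WT) libraries, given as not knocked down. The labels name the leaf as tissue and the mesophyll cell as cell type in every library, and they give neither leaf age nor the altered gene. They do not say whether libraries of a genotype came from separate plants, so the spread between them may be partly technical. In bulk leaf RNA, fewer cells of a type and less RNA per cell cannot be told apart.

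Identifiers of this form are numbered along the chromosome, so their order stands for gene order, while the gaps between numbers are not distances in bases. Neighbouring genes are inherited together, and plant genomes often carry families of related enzymes as rows of adjacent copies. The ent-kaurene oxidase family (CYP701A) of rice chromosome 6 is such a row. Ent-kaurene oxidase makes an early step of gibberellin synthesis, and gibberellins control stem and leaf growth. The files pair no identifier with a name, so all other members are described by identifier.

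Levels are FPKM, which are scaled by gene length and by library size. Differences are pls4 minus WT in log2(FPKM + 1), a scale that compresses the change of weakly expressed loci, and ± beside a difference is its standard error. Of the 406 loci, 194 reached an FPKM of 1 in at least 2 libraries and were tested. A call is a Benjamini-Hochberg adjusted p under 0.05 in a limma fit over all 19637 tested loci. A locus was called lost when its WT mean was at least 2 FPKM and neither pls4 library was above 0.1, and gained in the reverse case. Other loci that were called with at least a 2-fold difference are termed changed, and the remaining tested loci kept. Loci under the level filter are termed not measured.

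The measured loci of the stretch comprised 15 lost, 0 gained, 34 changed and 145 kept loci. Of the changed loci 17 were higher and 17 lower in pls4. The lost loci were 15 of the 160 members with a WT mean of at least 2 FPKM, against a background of 2.63% over all loci and 2.98% over the rest of chromosome 6. The gained class held none of 146 members with a pls4 mean of at least 2 FPKM, against a background of 0.856% over all loci and 1.16% over the rest of the chromosome. Altogether 17 members were called higher by at least 2-fold (background 7.11%) and 32 were called lower by at least 2-fold (background 7.21%). In the rest of chromosome 6 these shares were 9.45% higher and 6.94% lower.

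Without a limit on size, 70 of the 194 members were called higher (background 33.4% over all loci and 35.4% over the rest of chromosome 6). A further 54 were called lower (background 18.5% and 18.3%). Calls in either direction had a background of 52%, or 53.7% in the rest of the chromosome. The direction of the small differences depended on scaling. All 19637 tested loci had a median difference of 0.15. Scaling by median ratios left 45 members higher and 63 lower, with 10 at least 2-fold higher. Leaving out pls4 replicate 2 left 44 members higher, 10 of them by at least 2-fold. All 15 lost loci were called in 11 of the 12 alternative fits. The other fit, with a filter of 5 FPKM, tested 11 of the 15 and called those 11. The lost class was set on these same values, so its calls were nearly fixed in advance and are no separate support. Among the 194 tested members, 144 had pls4 libraries all above or all below the WT libraries, against a background of 69.9%, or 69.6% in the rest of chromosome 6.

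**Figure D1:**
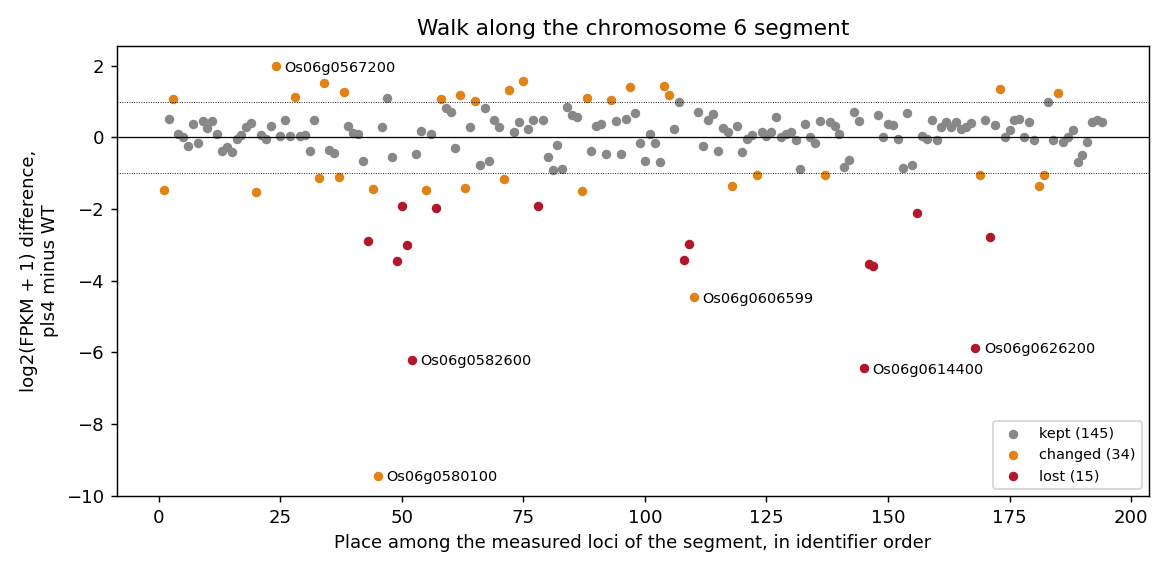
Each point is 1 of the 194 measured loci of the chromosome 6 segment, placed in identifier order (x axis) against its difference between pls4 and WT on the log2(FPKM + 1) scale (y axis); colours give the class and dotted lines mark a 2-fold difference. Red lost loci stand in small groups among grey kept loci, and the deepest point is Os06g0580100 at -9.45.

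Os06g0580100 was one of the most abundant transcripts of the stretch in WT and nearly absent in pls4. Its level was 0.21 and 0.04 FPKM in the pls4 libraries, against 804, 737 and 805 FPKM in the WT libraries. The WT libraries lay close together and far above both pls4 libraries, with a difference of -9.45 ± 0.10. It made up 9.98% to 10.6% of the summed FPKM of the stretch in WT. The value of 0.21 FPKM in pls4 replicate 1 puts it just outside the lost class, and it counts as changed.

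The loci on the lower side of Os06g0580100 went the same way. Os06g0579600 was listed at 0 in both pls4 libraries, against 1.45, 1.74 and 1.93 FPKM in the WT libraries. Os06g0579100 was listed at 0 in both pls4 libraries, against 11.6, 3.90 and 5.58 FPKM in the WT libraries. The WT libraries of Os06g0579100 differed widely among themselves, yet each was above both pls4 libraries. Before these came the longest part of the stretch without a measured locus, with 13 successive loci from Os06g0574900 to Os06g0578700. Of them 10 were listed at 0 in all 5 libraries, and the highest value among the 13 was 0.85 FPKM. Further down, Os06g0574500 and Os06g0574450 were kept. Os06g0574500 had 23.9 and 24.8 FPKM in pls4, against 24.6, 20.6 and 23.2 FPKM in WT. These libraries overlapped, whereas both pls4 libraries of Os06g0574450 (7.43 and 7.83 FPKM) were slightly above its WT libraries (7.29, 6.97 and 6.42 FPKM). The sign of both small differences turned under median ratio scaling, and that of Os06g0574500 also after quantile normalization. Os06g0574700 had 0.34 and 0.19 FPKM in pls4, against 1.52, 1.15 and 0.47 FPKM in WT, a call lost without either pls4 library and with no filter. Under quantile normalization its difference was -0.34, against -0.66 as deposited, and it was not called.

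On the other side of Os06g0580100, loss and expression alternated. The next locus, Os06g0581000, stood at 29.4 and 38.2 FPKM in pls4, against 24.95, 23.5 and 34.0 FPKM in WT. Its groups overlapped and it was not called. Os06g0581151 gave 13.6 and 5.14 FPKM in pls4, against 8.91, 7.54 and 0.02 FPKM in WT. WT replicate 3 alone was near 0 there, the groups overlapped and the difference of 1.10 ± 0.94 was not called. Os06g0581300 had 8.04 and 8.31 FPKM in pls4, against 12.4, 12.4 and 12.7 FPKM in WT, so it was lower but plainly present (-0.55 ± 0.09).

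After these kept loci came a row of 4 lost loci with no listed locus between them. Os06g0582600, the most abundant of the 4, had 0 and 0.04 FPKM in pls4, against 92.6, 57.2 and 77.6 FPKM in WT (-6.21 ± 0.19). Os06g0581500 was listed at 0 in both pls4 libraries, against 12.3, 8.09 and 9.91 FPKM in WT. Os06g0582400 was listed at 0 in both pls4 libraries, against 6.67, 6.85 and 7.48 FPKM in WT. All WT libraries of these loci were above 6 FPKM. Os06g0581701 was lower in WT, with 4.04, 1.71 and 2.97 FPKM, and was likewise listed at 0 in both pls4 libraries. The row ended sharply: Os06g0583400, the next locus listed, had 53.6 and 53.2 FPKM in pls4, against 79.0, 70.1 and 71.8 FPKM in WT.

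**Figure D2:**
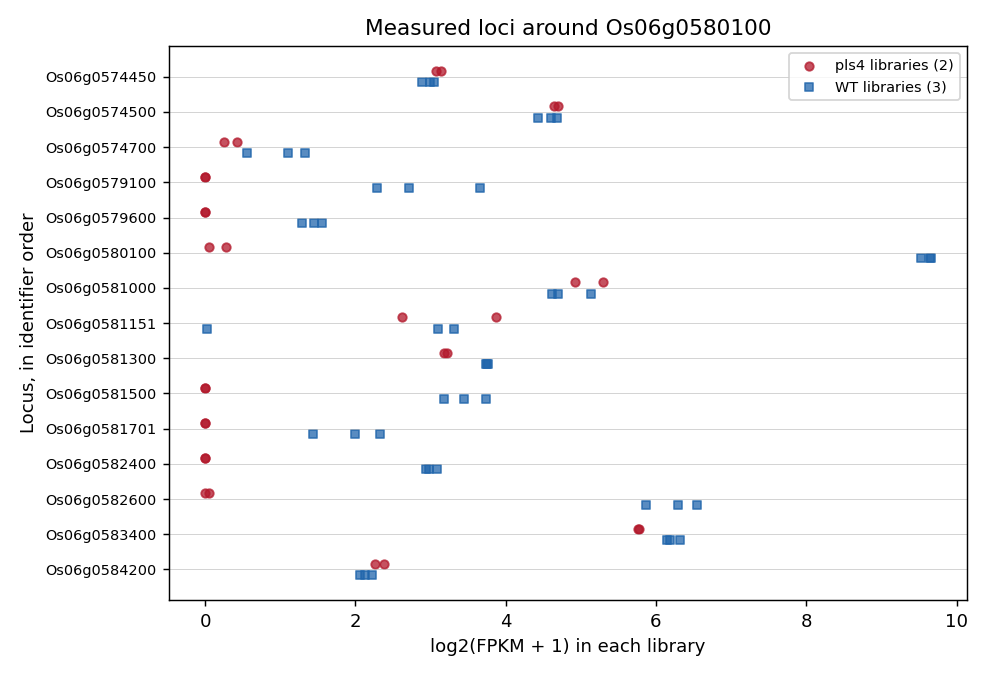
Rows are the measured loci around Os06g0580100 in identifier order, and each point is the log2(FPKM + 1) value of 1 library (circles, 2 pls4 libraries; squares, 3 WT libraries). Loci at or near 0 in pls4 alternate with loci expressed in both genotypes, and only WT replicate 3 of Os06g0581151 is near 0 among the WT libraries.

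A second row of lost loci held 3 members, again with no listed locus between them. Os06g0614400 was listed at 0 in both pls4 libraries, against 84.4, 83.1 and 91.4 FPKM in WT, the highest WT level of the 15 lost loci. Os06g0614550 was listed at 0 in both pls4 libraries, against 9.22, 12.5 and 10.2 FPKM in WT. Os06g0616400 had 0.06 and 0 FPKM in pls4, against 12.0, 10.01 and 12.2 FPKM in WT (-3.59 ± 0.12). The WT libraries of each of the 3 loci were close to each other and far above pls4. The measured locus before the row, Os06g0614300, was higher in pls4 (9.18 and 10.2 FPKM, against 6.94, 6.52 and 6.79 FPKM in WT, a call lost without pls4 replicate 2), as was the locus after it, Os06g0617800 (19.3 and 17.9 FPKM, against 10.6, 12.2 and 12.6 FPKM in WT).

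A pair of lost loci, Os06g0606100 and Os06g0606401, was followed by a locus that fell without reaching the lost class. Os06g0606100 was listed at 0 in both pls4 libraries, against 10.6, 9.79 and 8.78 FPKM in WT. Os06g0606401 was listed at 0 in both pls4 libraries, against 7.18, 6.59 and 6.72 FPKM in WT. Os06g0606599 had 1.21 and 0.35 FPKM in pls4, against 17.6, 58.6 and 49.6 FPKM in WT (-4.47 ± 0.48). WT replicate 1 was well below the other WT libraries at this locus, and all 3 were above pls4. The next locus, Os06g0606700, was abundant and higher in pls4, with 197 and 202 FPKM against 129, 119 and 118 FPKM in WT.

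The other 6 lost loci stood singly. Os06g0626200 had 0.08 and 0.04 FPKM in pls4, against 56.9, 65.8 and 61.1 FPKM in WT (-5.87 ± 0.10), and was the most abundant of the 6 in WT. Os06g0630850 was listed at 0 in both pls4 libraries, against 5.66, 5.55 and 6.35 FPKM in WT. In both cases the WT libraries formed a narrow band above pls4. Os06g0621500 had 0.01 and 0.02 FPKM in pls4, against 3.61, 3.28 and 3.22 FPKM in WT. Os06g0586900 had 0 and 0.02 FPKM in pls4, against 3.13, 3.00 and 2.70 FPKM in WT. These, with Os06g0597250 (listed at 0 in both pls4 libraries, against 3.05, 2.33 and 3.04 FPKM in WT) and Os06g0581701, were the 4 lost loci with the lowest WT means. The sixth single locus is Os06g0579100, described above.

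Over the 15 lost loci, 10 were listed at 0 in both pls4 libraries and the highest pls4 value was 0.08 FPKM. Their summed FPKM was 0.15 and 0.12 in the pls4 libraries, against 323, 280 and 309 in the WT libraries. Their WT means ran from 2.81 to 86.3 FPKM with a median of 7.03. The median coefficient of variation among their WT libraries was 9.19%.

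**Figure D3:**
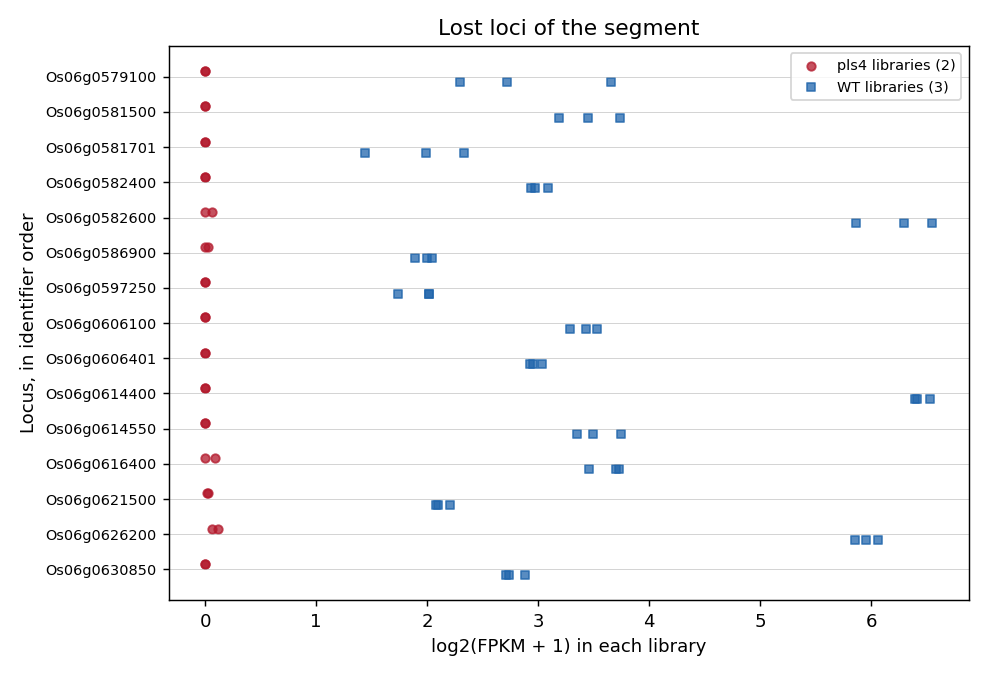
Rows are the 15 lost loci in identifier order, and each point is the log2(FPKM + 1) value of 1 library (circles, 2 pls4 libraries; squares, 3 WT libraries). The pls4 points sit at or next to 0 at every locus, while WT means run from 2.81 to 86.3 FPKM.

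Further loci lay just outside the lost class. Os06g0560000, the first identifier of the stretch, had 0 and 0.09 FPKM in pls4, against 2.65, 1.47 and 1.76 FPKM in WT, with a WT mean of 1.96 FPKM. Os06g0586000 was listed at 0 in both pls4 libraries, against 1.05, 2.33 and 2.14 FPKM in WT. Os06g0608000 had 0 and 0.07 FPKM in pls4, against 1.14, 2.83 and 1.31 FPKM in WT. All 3 missed the WT minimum of 2 FPKM by a small margin. Os06g0634700 (0.08 and 0.15 FPKM, against 1.97, 1.83 and 1.81 FPKM in WT) and Os06g0590800 (0.33 and 0.17 FPKM, against 2.62, 1.60 and 3.01 FPKM in WT) kept a trace of signal in pls4. With a WT minimum of 1 FPKM 19 loci were lost, and with 5 FPKM 11 were.

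Of the remaining changed loci on the lower side, Os06g0627100 was at 0.21 and 0.29 FPKM in pls4, against 2.46, 1.71 and 0.81 FPKM in WT, a call lost under quantile normalization and with no filter. The others were above 1 FPKM in both pls4 libraries. The most abundant, Os06g0608700, had 317 and 290 FPKM in pls4, against 613, 599 and 677 FPKM in WT (-1.05 ± 0.10). Os06g0571800 had 22.8 and 22.4 FPKM in pls4, against 47.6, 51.6 and 52.2 FPKM in WT (-1.12 ± 0.08). Os06g0594400 had 22.6 and 25.1 FPKM in pls4, against 49.5, 56.1 and 58.7 FPKM in WT (-1.16 ± 0.10). In all 3 the groups were well apart, with pls4 a little under 0.5 times the WT mean. Os06g0635200 (-1.06 ± 0.10), Os06g0574100 (-1.11 ± 0.12) and Os06g0612001 (-1.04 ± 0.14) fell by similar amounts. Os06g0566201 had 4.32 and 7.49 FPKM in pls4, against 28.9, 13.8 and 15.3 FPKM in WT, with WT replicate 1 far above the others. Os06g0600301 had 1.42 and 3.03 FPKM in pls4, against 7.85, 7.53 and 8.06 FPKM in WT.

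The 17 changed loci on the higher side were moderate by comparison, with differences from 1.01 to 1.98. Os06g0567200 rose most, with 17.0 and 16.5 FPKM in pls4, against 2.68, 4.41 and 3.60 FPKM in WT (1.98 ± 0.16). Os06g0596300 had 42.8 and 51.3 FPKM in pls4, against 17.1, 14.2 and 14.0 FPKM in WT (1.58 ± 0.12). Os06g0603000, the most abundant of the 17, had 151 and 166 FPKM in pls4, against 68.6, 51.8 and 58.7 FPKM in WT (1.40 ± 0.12). No pls4 library of these loci was within the WT range. Os06g0605600 (1.43 ± 0.11), Os06g0632200 (1.34 ± 0.12) and Os06g0574200 (1.27 ± 0.13) also rose. Os06g0574200 follows Os06g0574100, which fell, in the listing.

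Only Os06g0572000 and Os06g0595433 of the stretch were detected in pls4 at over 1 FPKM and listed at 0 in every WT library. Os06g0572000 had 2.05 and 1.71 FPKM in pls4, and Os06g0595433 had 1.5 and 1.48 FPKM in pls4. Both were under the minimum of 2 FPKM for the gained class. With a minimum of 1 FPKM the gained class held these 2 loci, against 19 lost loci under the same minimum.

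**Figure D4:**
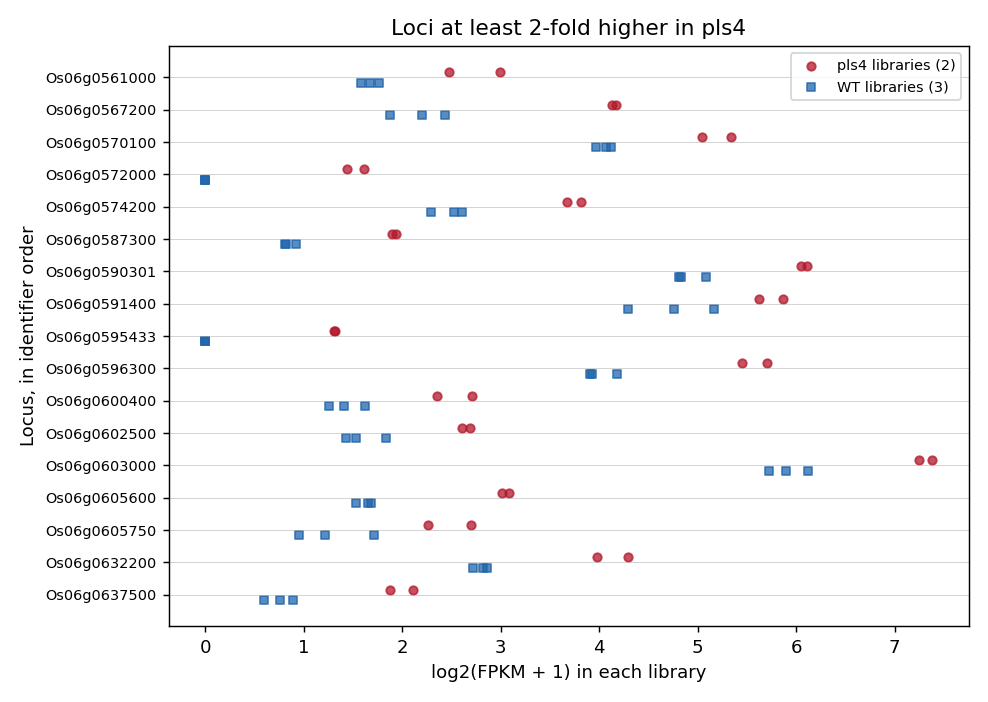
Rows are the 17 loci called at least 2-fold higher in pls4, in identifier order, and each point is the log2(FPKM + 1) value of 1 library (circles, 2 pls4 libraries; squares, 3 WT libraries). The pls4 points lie to the right of all WT points in every row, and Os06g0572000 and Os06g0595433 are at 0 in WT.

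The stretch includes 2 genes of the ent-kaurene oxidase family, named from recalled pairs of symbol and identifier. The names were checked by gene order against the RefSeq table (assembly ASM3414082v1), which lists 4 CYP701A genes side by side on chromosome 6. The check allowed a margin of 0.05 of the chromosome and cannot tell adjacent copies apart. Which of the copies is KO2 and which KOL4 therefore rests on the recalled names. KO2 (Os06g0570100, also D35) acts in gibberellin synthesis. It had 32.0 and 39.4 FPKM in pls4, against 14.7, 16.4 and 15.8 FPKM in WT (1.14 ± 0.11). Both pls4 libraries were above all WT libraries, and the call held in all 12 alternative fits. The difference was just under the 2-fold limit with median ratio scaling (0.96), quantile normalization (0.97) and without pls4 replicate 2 (0.99). KOL4 (Os06g0569500, CYP701A8) is a neighbouring copy known for acting on diterpenes of plant defence. It had 37.0 and 40.5 FPKM in pls4, against 42.1, 37.3 and 34.3 FPKM in WT. Its groups overlapped, and the difference of 0.03 ± 0.11 took the opposite sign in 5 of the 12 alternative fits. Among these 5, the replicate block and leaving out WT replicate 3 gave the same difference (-0.033) and are not separate estimates. How reads were divided between these similar copies in the authors' counting is not stated in the labels or headers.

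Other genes of gibberellin synthesis and perception lie outside the stretch. Of 8 with checked names, 3 were called higher (background 33.4%), 1 lower (background 18.5%) and 4 were not called. These shares of the 8 were near the background, and their median difference was 0.18, against 0.15 over all tested loci. Listed genes with unchecked names are outside this count and are given below. CPS1 (Os02g0278700), which acts before KO2 in the pathway, was lower, at 2.07 and 1.88 FPKM in pls4, against 2.82, 4.14 and 3.64 FPKM in WT (-0.60 ± 0.15). KS1 (Os04g0611800), the step between them, had 14.2 and 11.5 FPKM in pls4, against 12.6, 13.5 and 12.4 FPKM in WT, and its groups overlapped. KAO (Os06g0110000), which acts after KO2, had 3.48 and 3.40 FPKM in pls4, against 2.97, 2.00 and 2.41 FPKM in WT, and was not called.

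EUI1 (Os05g0482400), which inactivates gibberellins, had 2.26 and 1.54 FPKM in pls4, against 0.76, 1.00 and 1.02 FPKM in WT (0.58 ± 0.15). The perception genes GID2 (Os02g0580300) and SLR1 (Os03g0707600) had differences of 0.35 ± 0.08 and 0.28 ± 0.07. Both calls were lost under median ratio scaling, with the replicate block, under quantile normalization and without pls4 replicate 2. In each of these 4 fits 1 of the 8 genes was higher and 1 lower, as also without pls4 replicate 1. That of SLR1 was also lost without WT replicate 2 or 3 or pls4 replicate 1. The receptor gene GID1 (Os05g0407500) and SD1 (Os01g0883800), a gibberellin 20-oxidase, were not called, although SD1 was called lower without pls4 replicate 2, and KAO higher without WT replicate 1. The call of CPS1 was lost without pls4 replicate 2, as was that of EUI1 without pls4 replicate 1, and both with no filter. Of 3 further listed identifiers with unchecked names, Os01g0177400 had 7.88 and 5.62 FPKM in pls4, against 0.24, 0.25 and 0.36 FPKM in WT. It was called higher (2.58 ± 0.15). Os03g0856700 was also called higher (0.48 ± 0.15). That call was lost under median ratio scaling, quantile normalization, the replicate block and no filter, and without WT replicate 2 or 3. Without pls4 replicate 2, which leaves 1 pls4 library, the difference of Os03g0856700 shrank to 0.35, and the call cannot be said to have held. Os05g0178100 was listed at 0 in all 5 libraries.

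The 145 kept loci included Os06g0611900, the most abundant transcript of the stretch in both genotypes. It had 2325 and 2511 FPKM in pls4, against 1779, 1743 and 1782 FPKM in WT (0.45 ± 0.10, a call lost under median ratio scaling, with the replicate block and with no filter). This locus provided 31.8% and 33.4% of the summed FPKM of the stretch in pls4, against 22.8% to 23.6% in WT. Os06g0612800 had 348 and 335 FPKM in pls4, against 302, 250 and 274 FPKM in WT (0.31 ± 0.10, a call lost in those fits too, under quantile normalization and without WT replicate 2 or 3 or either pls4 library). Os06g0625400 had 494 and 425 FPKM in pls4, against 386, 399 and 384 FPKM in WT, and was called only without pls4 replicate 2 among the 12 alternative fits. In all 3 both pls4 libraries were above the WT libraries. Of the kept loci 53 were called higher (background 30.7% of all kept loci) and 22 lower (background 13.2%), and 70 were not called. Os06g0573600 (2.00 and 2.42 FPKM in pls4, against 3.19, 3.22 and 3.68 FPKM in WT) was among the 22, a call lost without WT replicate 3, without pls4 replicate 1, under the replicate block and with no filter. Os06g0606000 (0.98 ± 0.12) and Os06g0591400 (1.01 ± 0.23) lay just under and just over the 2-fold limit.

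The summed FPKM of the stretch was 7309 and 7519 in pls4, against 7792, 7384 and 7596 in WT, so the groups overlapped. Without Os06g0580100 it was 7309 and 7519 in pls4, against 6988, 6647 and 6790 in WT. That sum still rests heavily on 1 locus, Os06g0611900, with 2325 and 2511 FPKM in pls4, against 1779, 1743 and 1782 FPKM in WT. It therefore does not describe the other members of the stretch. The number of members at 1 FPKM or more was 165 and 166 in the pls4 libraries, against 188, 181 and 184 in the WT libraries.

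Along the identifiers, 31 runs of kept loci alternated with short runs of the other classes. The longest kept run held 16 loci, from Os06g0561200 to Os06g0566100. Others held 13 loci, from Os06g0608800 to Os06g0611900, and 11 loci, from Os06g0622300 to Os06g0625900. Changed loci formed 26 runs, 18 of them of a single locus and none longer than 2. Lost loci formed 9 runs, of which 6 were single, and the longest were the rows of 4 and 3 described above. Of the 15 lost loci, 4 had a kept neighbour on neither side, 8 on 1 side and 3 on both.

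In the rest of chromosome 6, 33 lost loci formed 27 runs and the longest held 2 loci. Changed loci there did form longer runs, up to 6 loci, from Os06g0188700 to Os06g0190700. When lost and changed loci were counted as a single class, the longest run was 4 in the stretch and 9 in the rest of the chromosome. The difference between the stretch and the rest was not tested, since the stretch was picked on these values.

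The stretch was cut into 8 parts of equal identifier width, and the counts of falls differed between them. The part from Os06g0580100 to Os06g0589950 held 5 lost loci among 14 members with a WT mean of at least 2 FPKM (background 2.63%). Of its 17 tested loci 7 were called at least 2-fold lower (background 7.21%) and 1 higher (background 7.11%), and its median difference was -0.45. Os06g0580100, whose fall chose the stretch, is among these 7, so this count is partly fixed by that choice. The first part, from Os06g0560000 to Os06g0569900, held no lost locus among 20 such members, and its median difference was 0.06. The medians of the other 6 parts ran from 0.01 to 0.29. The part from Os06g0610000 to Os06g0619650 had 0 of 24 tested loci called at least 2-fold higher and 4 lower. The part from Os06g0620000 to Os06g0629687 had 0 of 15 higher and 3 lower. The background shares were 7.11% higher and 7.21% lower, so few calls in either direction would be looked for in parts of this size. The lower calls were 16.7% and 20% of the tested loci of these parts, above the background share but on few loci.

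Cut in the same way, the whole of chromosome 6 gave 9 stretches, of which the one described here is the seventh. Lost loci were 9.38% of its 160 members with a WT mean of at least 2 FPKM. The shares were similar from Os06g0240001 to Os06g0319850 (8.76% of 137 loci) and at the end of the chromosome. The end stretch is shorter, from Os06g0720000 to Os06g0732000, and its share rests on 5 lost loci (9.26% of 54 loci). In the other 6 stretches the shares ran from 0 to 4.67%. Calls at least 2-fold lower were 16.5% of the tested loci here, against 20.0% in the end stretch and 13.5% in the stretch from Os06g0240001. The lost loci also did not stop at the limit: Os06g0559600, the last measured locus before the stretch, had 0.01 and 0.02 FPKM in pls4, against 3.47, 2.13 and 2.50 FPKM in WT. On the other side the first measured locus, Os06g0640599, was kept, with 16.1 and 17.4 FPKM in pls4, against 20.8, 18.6 and 21.1 FPKM in WT.

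**Figure D5:**
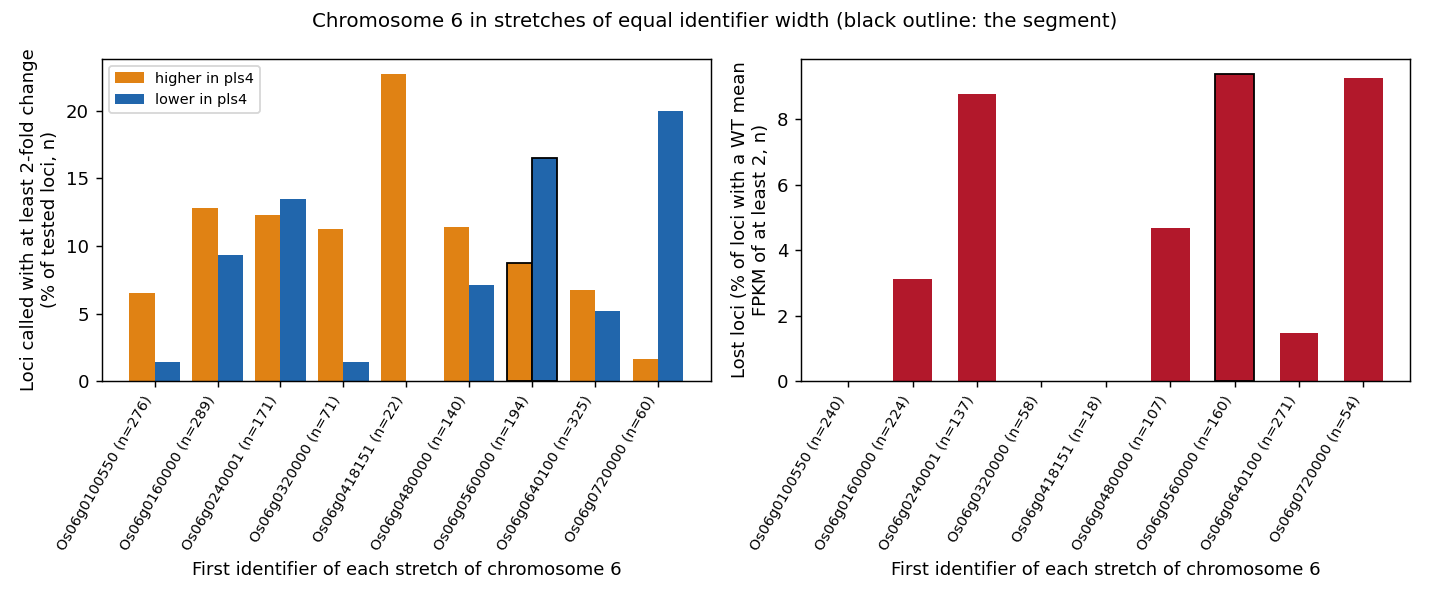
Chromosome 6 is cut into 9 stretches at equal steps of the identifier, named by their first identifier with the number of loci (n). Listed loci do not fill every step, and the last stretch ends at Os06g0732000. Left, percent of tested loci called at least 2-fold higher (orange) or lower (blue) in pls4; right, percent of loci with a WT mean of at least 2 FPKM that were lost. The outlined stretch from Os06g0560000 has 9.38% lost loci, close to the stretches from Os06g0240001 and Os06g0720000; the stretch from Os06g0418151 rests on 22 tested loci.

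The form of the identifier differed between the classes. Most identifiers of the annotation end in 00, and others were placed between them. Identifiers with another ending made up 5 of the 15 lost loci, 7 of the 34 changed and 9 of the 145 kept loci. They also made up 73 of the 212 loci that were not measured. In the rest of chromosome 6 they were 4 of 33 lost, 18 of 176 changed and 92 of 1132 kept loci. Of the 212 members that were not measured, 91 were listed at 0 in all 5 libraries, and none exceeded 1.08 FPKM. Os06g0610350, a locus of the list of names, was among them, with at most 0.03 FPKM in any library.

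Over the whole table, 18393 to 18538 loci of a library were at 1 FPKM or more, and read totals are unknown. Some cell type markers differed between the genotypes. The leaf mesophyll list (Os01g0600900, Os12g0274700 and RCA, Rubisco activase) was present but lower. It summed to 12296 and 9822 FPKM in pls4, against 21089 to 27919 FPKM in WT, with 3 of 3 called lower (background 18.5%). Secondary wall cellulose synthases (CESA4, CESA7 and CESA9) summed to 19.0 and 9.20 FPKM in pls4, against 1.77 to 3.07 FPKM in WT. Of these, 3 of 3 were called higher (background 33.4%). The root marker LSI1 was called higher, against the same background, and the seed marker GLUA2 was not called. Of the dividing cell markers PCNA and MCM2 only the second was called lower (background 18.5%). No list had a member at 0 in all libraries of a genotype. The part of these shifts in the values of the chromosome 6 loci was not tested.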

How the data were processed

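The authors deposited FPKM values, 1 table per library, per the file headers, although the tables are titled RPKM. TopHat2 2.1.1 and build IRGSP-1.0 are named in the submitters' processing notes. The labels and headers do not state the counting tool, annotation, filters or any scaling between libraries. Total depth is unknown. Low values (0.1 to 0.8 FPKM) of WT replicate 2 were most often 0.758 times those of WT replicate 1, against ratios of 0.966 to 1.00 for the other libraries. At most 0.276% of values of at least 5 FPKM were equal in any pair of libraries.

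limma 3.58.1 (R 4.3.3, variance trend) was run on log2(FPKM + 1) over the whole table of 36475 loci, keeping those that reached 1 FPKM in 2 or more of the 5 libraries. The fit was also run on simulated data with few changed loci, equally many up and down. That setting differs from these data, where 52% of the tested loci were called, so its outcome is not used as support. The members, lists and thresholds were chosen with earlier results of these data known. Named are Os06g0580100 with 5 measured loci on either side, all lost and gained loci, the 8 largest rises and falls, members of runs of 3 or more, the 5 most abundant loci and listed symbols; further loci beside them were named after their values were seen. Of 25 recalled pairs of symbol and identifier, 18 matched the RefSeq gene order within 0.05 of the chromosome and 7 have a symbol that the table lacks; these 7 are given by identifier. Alternatives were other pseudocounts, level filters, scalings, a replicate term, thresholds and leaving out each library. One locus of the range is not reported here.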

Additional observations from a re-analysis of the deposited data

How the results depend on the processing

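All 15 lost loci of the segment were called in 11 of the 12 alternative fits. With a filter of 5 FPKM 11 of them were tested, all called. The class was set on these same values, so these calls were nearly fixed in advance. Leaving out 1 library at a time, alternatives chosen after seeing the data, gave 15 to 17 lost and 0 to 1 gained loci, and a minimum of 1 FPKM gave 2 gained loci. With a filter of 5 FPKM fewer loci were tested, and 10 segment loci were at least 2-fold higher, 21 at least 2-fold lower and 34 lower at any size, with 59 at least 2-fold lower in the rest of chromosome 6. With median ratio scaling 45 segment loci were higher at any size and 10 at least 2-fold higher; the cause was not tested. Leaving out 1 library gave 44 to 69 segment loci higher at any size, 10 to 19 at least 2-fold higher, and 290 to 488 higher in the rest of chromosome 6.

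With the replicate block 43 segment loci were called higher and 49 lower. The deviations of same-numbered libraries had r of -0.095 for number 1 and -0.138 for number 2 across loci, which are not independent. With 2 pls4 libraries the deviations of one mirror those of the other, so these values are not separate checks and cannot decide on pairing. The numbers were not taken as pairs. WT replicate 3 has no partner, so the replicate block gives the same differences as leaving it out. KOL4 (Os06g0569500) stood at -0.14 under median ratio scaling, -0.13 under quantile normalization, -0.033 with the replicate block, and -0.033 to 0.11 without 1 library. Os06g0574450 stood at -0.031 under median ratio scaling, and Os06g0574500 at -0.081 there and -0.075 under quantile normalization. Depth is unknown, so a listed 0 cannot be given an upper limit.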
